A study of Mus musculus with 9 samples.

Results

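The genes described here encode the nuclear subunits of the mitochondrial respiratory chain and ATP synthase in mouse colon. They were chosen by symbol among the protein-coding genes of the deposited table: names starting Nduf with a letter a, b, c, s or v and a digit (complex I), Sdha to Sdhd (complex II), names starting Uqcr and Cyc1 (complex III), Cox4 to Cox8 (complex IV) and Atp5 (complex V). This gave 87 of 45777 genes, with 39 in complex I, 4 in complex II, 9 in complex III, 18 in complex IV and 17 in complex V. Symbols are those of the table, some of which have newer forms, and Ndufa4, whose protein is now placed in complex IV, is grouped with complex I by its name. Of the 87, 85 had enough reads to be tested, and Cox7b2 and Cox8c, testis-type forms of complex IV subunits, had no read in any library. A further 11 non-coding rows carry matching names and are not members. Their summed level was 62.8 to 147.8 CPM per library, most of it from Ndufb1-ps, Ndufs5-ps and Atp5l2-ps. Reads of a member could be split with such a copy. CPM here are counts scaled to an effective library size set by TMM, not to the library total. Ndufb4, Ndufb4b and Ndufb4c have similar sequences, so their separate values are uncertain. The annotated spans of 29 members overlap another gene, and reads there cannot be assigned with certainty because the sources used here do not give the strand setting of the counting.

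The study sequenced colon RNA from wild-type mice in 9 libraries, 3 per group. Control mice (CT) ate a normal diet with no cast. The IM mice ate the normal diet and wore a plastic-tube cast on the hindlimb for 10 days, and the IM-HYA mice wore the same cast while eating a diet that contained HYA, a name the labels do not spell out. No group received HYA without a cast, so IM-HYA against IM is the comparison that bears on the diet, IM against CT the one that bears on the cast, and IM-HYA against CT combines both. The labels number the replicates without saying that each is its own animal, so the p-values reflect how far these libraries differ, a spread that could be technical.

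The respiratory chain passes electrons from NADH, at complex I, and from succinate, at complex II, through coenzyme Q to complex III, then through cytochrome c to complex IV, where oxygen is reduced. Complexes I, III and IV pump protons across the inner mitochondrial membrane, and complex V, the ATP synthase, uses the proton gradient to make ATP. All complexes but II also hold subunits encoded in mitochondrial DNA, so both genomes contribute to the assembled enzymes. In the colon, epithelial cells use this machinery to burn butyrate made by the gut bacteria.

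Promoters of many of these genes are known to bind nuclear respiratory factor 1 (NRF1), the ETS factor GABPA and YY1, so the start regions were searched first. RefSeq promoter windows of GRCm38.p6, the same build as the deposited table, were available for 69 of the 87 members. They span 250 bases before to 50 after an annotated transcript start. Some members have more than 1 window, and some of these starts lie inside the gene span, as in Cox5a, Atp5j and Atp5g3. A gene was counted where any of its windows held the letters, so genes with more windows had more chances. The NRF1 letters, GCGCA and GCGC with any base between them, were found on either strand in 17 of 69 members (24.6%), against 5.19% of 27025 genes with a window of that length. The ETS letters CCGGAAG were found in 17 members (24.6%), against 9.93% of genes, and the YY1 letters ATGGCG in 18 (26.1%), against 10.2%. At least 1 of these motifs was present in 43 members and none in 26. Each motif was counted on its own, so matches of different motifs may overlap. NRF1 letters were found in 7 of 33 complex I members with a window, 2 of 3 in complex II, 1 of 5 in complex III, 1 of 13 in complex IV and 6 of 15 in complex V. A match is a description of the letters and not a measured binding site.

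The 110 bases that end just before an annotated transcript start are printed for 4 members, because each holds NRF1 letters there. They were also chosen because, as the values below show, they lay on opposite sides of the difference between IM 3 and IM 1. For Atp5c1 this start lies inside the annotated gene span (10056030 to 10080510). Most of its printed stretch, and its NRF1 match, thus lie within the gene. Sequences are RefSeq GRCm38.p6, 5′ to 3′ on the gene's strand, and capitals mark the NRF1 matches. They are Ndufb4 (chr16:37654369-37654478, minus strand, 2 matches), Ndufa5 (chr6:24527691-24527800, minus strand, 1 match), Sdha (chr13:74350241-74350350, minus strand, 3 matches) and Atp5c1 (chr2:10080433-10080542, minus strand, 1 match).
Ndufb4: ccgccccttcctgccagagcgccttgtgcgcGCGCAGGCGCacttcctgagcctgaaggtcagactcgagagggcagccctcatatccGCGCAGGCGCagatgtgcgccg
Ndufa5: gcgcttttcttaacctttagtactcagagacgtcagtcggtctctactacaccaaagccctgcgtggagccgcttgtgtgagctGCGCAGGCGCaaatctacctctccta
Sdha: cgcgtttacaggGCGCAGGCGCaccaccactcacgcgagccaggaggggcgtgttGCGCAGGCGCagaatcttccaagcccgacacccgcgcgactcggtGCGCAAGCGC
Atp5c1: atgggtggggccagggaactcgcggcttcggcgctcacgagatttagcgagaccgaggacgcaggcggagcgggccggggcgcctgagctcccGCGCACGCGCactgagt

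The libraries held 19638401 to 42917198 counts. All 13 epithelial markers were detected, at a mean log2 CPM between 8.34 in IM 3 and 9.72 in IM-HYA 2, as in colon, and several other features parted libraries of the same group. Acinar enzyme genes of the pancreas took 27.2% of the counts of CT 2 and at most 0.47% elsewhere. The 18S ribosomal pseudogene Rn18s-rs5 took 5.42%, 8.76% and 23.2% in CT, 2.88%, 11.3% and 16.4% in IM, and 4.19%, 4.60% and 3.66% in IM-HYA, always in the order of replicates 1, 2 and 3. Adipocyte markers reached a mean log2 CPM of 5.09 in IM 1 and 6.50 in IM 3, against 2.75 to 3.97 in the other libraries. Distal Hox genes, which mark position along the colon, averaged 4.69, 3.33 and 1.91 in CT, 4.93, 0.53 and −1.21 in IM, and 4.90, 1.60 and 4.98 in IM-HYA. In bulk tissue, fewer cells of a type and less RNA per cell cannot be told apart.

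On the TPM scale, which divides counts by transcript length and then by the library sum, the members made up 5.59%, 2.28% and 4.95% of the RNA in the CT libraries, 4.21%, 6.33% and 4.63% in IM, and 4.96%, 5.49% and 5.07% in IM-HYA. CT 2, the library with pancreatic RNA, was the lowest, and the groups overlapped. Complex IV held 30.8% to 32.7% of the member TPM in every library, complex V 24.7% to 29.9%, complex I 23.4% to 30.4%, complex III 11.3% to 13.1% and complex II 1.21% to 3.18%. IM 3 had the highest complex I share and the lowest shares of complexes II, III and V.

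The member with the highest mean TPM over the 9 libraries was Cox4i1, the ubiquitous form of the largest nuclear subunit of complex IV, at 2876 ± 875 TPM (SD over libraries). Cox6a1, another complex IV subunit, followed at 2464 ± 687 TPM, and Uqcrh, the hinge protein of complex III, at 2289 ± 780.4 TPM. These levels lay within their spread of each other. The highest in the other complexes were Atp5l, subunit g of ATP synthase, at 1305 ± 376 TPM, Ndufa3, an accessory subunit of complex I, at 803 ± 392 TPM, and Sdhd, a membrane anchor of complex II, at 391 ± 133 TPM. Atp5l, Atp5g3 (1256 ± 348 TPM) and Atp5e (1256 ± 484 TPM) of complex V did not differ beyond their spread. The lowest tested member was Cox6a2, the muscle form of a complex IV subunit, at 0.438 ± 0.471 TPM.

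Counts scaled to the TMM effective library size, which is not the library total, gave a different order of libraries than TPM. On this CPM scale the members summed to 23579, 26337 and 24634 in CT, 16098, 28329 and 21372 in IM, and 19271, 22252 and 20258 in IM-HYA. All 3 IM-HYA libraries lay below all 3 CT libraries, and the IM libraries spanned both groups. Complexes I, III, IV and V summed lower in each IM-HYA library than in each CT library, whereas the complex II sums overlapped at 1021, 886 and 949 in CT and 1003, 1003 and 1011 in IM-HYA. IM 1 was the lowest of the 9 libraries for 46 members and IM 3 for 35, and IM 2 was the highest for 29 and CT 2 for 23. The median SD of log2 CPM over the 9 libraries was 0.42 for the members, 0.49 for all genes tested and 0.39 for the 12077 genes at or above the members' 5th percentile of mean CPM.

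**Figure D1:**
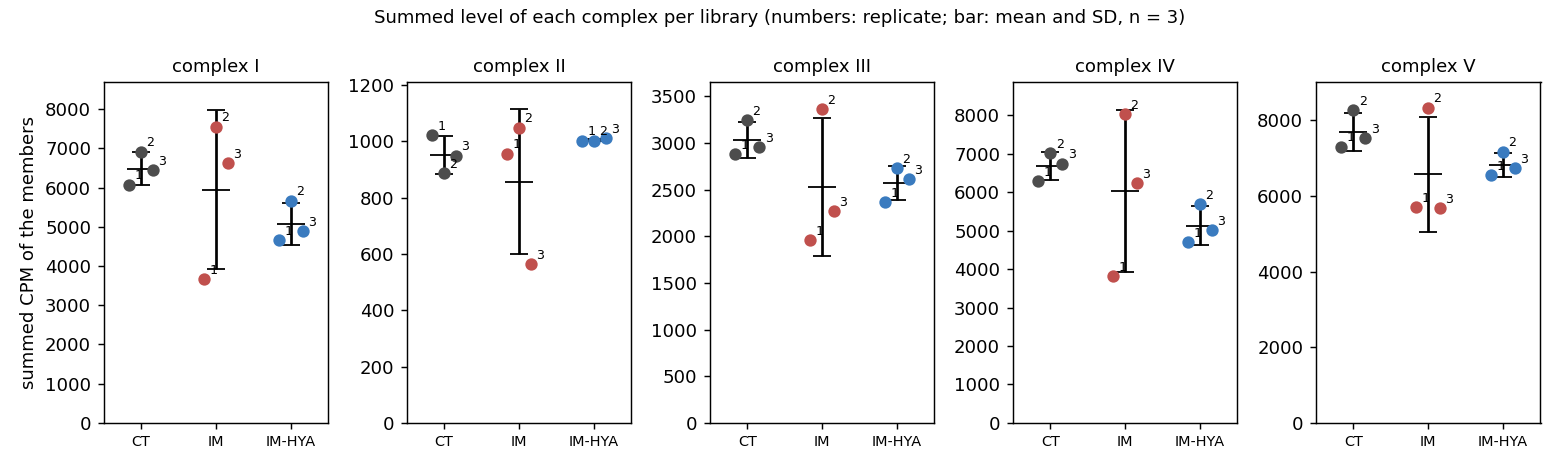
Summed CPM of the members of each complex (vertical axis) in each library, by group. Points are libraries numbered by replicate, and bars are the mean and SD of 3 libraries. The IM libraries are the most spread in every complex, and the IM-HYA libraries lie below the CT libraries in complexes I, III, IV and V but not in complex II. On the TPM scale the members' summed share overlapped between these groups.

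The comparison of IM with CT asked how the cast went with gene levels on a normal diet. No member passed the quasi-likelihood test of edgeR, Benjamini-Hochberg adjusted over 18414 genes, where 1 gene passed (0.00543%). The members' adjusted p ran from 0.621 to 0.994. At an unadjusted p under 0.05 there were 6 members, 5 lower and 1 higher in IM, while 7.94% of all genes were under that value, and DESeq2 called 0 members and 63 genes (0.342%). The fitted log2 fold change was below 0 for 70 of 85 members, against 46.4% of genes, and its median was −0.25, against 0.04 over all genes. Every IM library was below every CT library for 7 members (8.24%), against 4.59% of genes, and above them for 1 (1.18%), against 4.43%. The median was below 0 in every complex, at −0.25 in I, −0.17 in II, −0.29 in III, −0.23 in IV and −0.38 in V. On log2(FPKM + 1) values the members' median was 0.12 and that of all genes 0.32, so the sign of the median depends on the scaling. The members lay below the median gene on both of these, but above it on unfiltered log2(FPKM + 1) values (0.12 against 0.09) and with voom and quality weights (0.014 against −0.0098).

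Among complex I members Ndufb4, an accessory subunit of the membrane arm (Entrez 68194, chromosome 16, 37647602 to 37654368), measured 86.99, 84.6 and 57.96 CPM in CT against 54.7, 57.8 and 37.7 in IM. The IM libraries were all lower than the CT libraries, the nearest being CT 3 at 57.96 and IM 2 at 57.77. Its log2 fold change was −0.61 (SE 0.23), with an unadjusted p of 0.0230 and an edgeR adjusted p of 0.621. Higher in IM by the fit was Ndufa10, another accessory subunit of the membrane arm, which measured 90.2, 154 and 108 CPM in CT against 110.3, 152 and 191 in IM, a log2 fold change of 0.37 (SE 0.26; edgeR adjusted p 0.700). Its groups overlapped, and the value ran from 0.16 without IM 3 to 0.58 without CT 2, with 0.21 without CT 1.

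In complex IV the member with the smallest p was Cox7a1, the muscle and heart form of subunit 7a (Entrez 12865, chromosome 7, 30184171 to 30186030). It measured 42.1, 53.8 and 48.2 CPM in CT, 24.4, 33.3 and 12.7 in IM and 29.1, 26.2 and 36.6 in IM-HYA. Every cast library, with or without HYA, lay below every CT library. The log2 fold change of IM against CT was −1.03 (SE 0.31; unadjusted p 0.00847, edgeR adjusted p 0.621), and that of IM-HYA against CT −0.65 (SE 0.31; edgeR adjusted p 0.854), with the same CT libraries in both. Smooth muscle markers averaged a log2 CPM of 8.86 to 9.84 in CT, 8.51 to 10.0 in IM and 9.32 to 9.59 in IM-HYA, and overlapped between the groups.

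Cox8b, the heart and muscle form of subunit 8, which brown fat also expresses (Entrez 12869, chromosome 7, 140898942 to 140900446), measured 1.25, 1.02 and 0.513 CPM in CT, 1.67, 1.46 and 16.2 in IM and 0.758, 0.618 and 0.314 in IM-HYA. IM 3 stood far above the other libraries, and the remaining IM libraries lay just above CT 1. This gave a log2 fold change of 2.77 (SE 0.90; unadjusted p 0.0124, edgeR adjusted p 0.621), and it ranged from 0.74 to 3.22 as each library was left out, with 0.74 without IM 3. Summed brown adipocyte markers, 4 genes, were 0.41 to 0.74 CPM in CT, 1.99 to 9.77 in IM and 0.51 to 1.02 in IM-HYA. Their mean log2 CPM was −0.27 in IM 1, −1.85 in IM 2 and 0.03 in IM 3, while Cox8b was high in IM 3 alone. Adipocyte markers as a whole were highest in IM 3 too, at a mean log2 CPM of 6.50, with 5.09 in IM 1. Their part in the Cox8b value was not tested.

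In complex V the lowest fitted values belonged to small subunits. Atp5md, a small membrane subunit of ATP synthase also known as DAPIT (Entrez 66477, chromosome 19, 47083471 to 47090647), measured 129.98, 136 and 107 CPM in CT against 71.9, 98.5 and 38.3 in IM. No IM library reached the CT range, and IM 3 was the lowest. Its log2 fold change was −0.84 (SE 0.30; unadjusted p 0.0197, edgeR adjusted p 0.621), and −0.54 without IM 3. Atp5e, the epsilon subunit of the central stalk, and Atp5l also had no overlap between IM and CT, and the remaining members without overlap were Ndufb8, an accessory subunit of complex I, and Uqcr10, a small subunit of complex III. Their log2 fold changes were −0.76 (SE 0.37) for Atp5e, −0.60 (SE 0.30) for Atp5l, −0.39 (SE 0.21) for Ndufb8 and −0.56 (SE 0.24) for Uqcr10.

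The comparison of IM-HYA with IM asked how the HYA diet went with gene levels in mice that wore the cast. By the quasi-likelihood test of edgeR, Benjamini-Hochberg adjusted, no member passed and 0 of all genes did (0.0%). The members' adjusted p ran from 0.604 to 0.9998. At an unadjusted p under 0.05 there were 2 members, both lower in IM-HYA, while 7.66% of all genes were under that value, and DESeq2 called 0 members and 46 genes (0.25%). The fitted change was below 0 for 47 of 85 members, against 51.0% of genes, with a median of −0.01 for the members and −0.01 for all genes. All IM-HYA libraries lay above all IM libraries for 10 members (11.8%), against 5.39% of genes, and below them for 1 (1.18%), against 4.30%. The 10 were Ndufb4, Ndufb4b, Ndufb4c, Ndufs8, Ndufv1, Uqcrfs1, Cox7b, Cox8a, Atp5j and Atp5md. In several of them IM 3 was far below the other libraries, as described further on.

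Atp5md measured 103, 104 and 118 CPM in IM-HYA against 71.9, 98.5 and 38.3 in IM, a log2 fold change of 0.64 (SE 0.30; edgeR adjusted p 0.604). Ndufb4 measured 72.1, 63.3 and 69.5 CPM against 54.7, 57.8 and 37.7, a log2 fold change of 0.45 (SE 0.23; edgeR adjusted p 0.604). In both genes the IM-HYA libraries lay above the IM libraries and within or just below the CT range. IM-HYA against IM and IM against CT share the IM libraries, so their values are not independent of each other. Ndufs8, a core subunit that carries iron-sulfur clusters, measured 75.8, 114 and 55.4 CPM in CT, 64.2, 70.8 and 36.6 in IM and 78.5, 93.5 and 86.6 in IM-HYA, a log2 fold change of 0.59 (SE 0.31) against IM (edgeR adjusted p 0.604). Without IM 3 these values came to 0.35 for Atp5md, 0.28 for Ndufb4 and 0.35 for Ndufs8, and without IM 2 Atp5md came to 0.98.

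On the other side, Cox8b had a log2 fold change of −3.50 (SE 0.92; unadjusted p 0.00391, edgeR adjusted p 0.604), and it was −1.46 without IM 3. Ndufa2, an accessory subunit of complex I, measured 238, 282 and 335 CPM in CT, 65.98, 338 and 514 in IM and 99.3, 148 and 116 in IM-HYA. IM 1 was the lowest of the 9 libraries and IM 3 the highest, so the IM group spanned both others. Against IM its log2 fold change was −1.34 (SE 0.55; unadjusted p 0.0373, edgeR adjusted p 0.604). The 4 libraries lowest in Ndufa2 were also the 4 lowest in the 18S share, and they include all IM-HYA libraries. With that share as a covariate the log2 fold change was −0.17, and with colon position as the covariate it was −0.03. The part of either in this value was not tested.

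Ndufa3 followed Ndufa2, at 155, 217 and 216 CPM in CT, 78.8, 259 and 393 in IM and 101, 149 and 117 in IM-HYA. Again IM 1 was lowest and IM 3 highest, and the IM-HYA libraries lay below the CT libraries. The log2 fold change against IM was −0.99 (SE 0.46; edgeR adjusted p 0.604), −0.12 with the 18S covariate and −0.01 with colon position. Without IM 3 it was −0.46, and that of Ndufa2 −0.74. The part of the 18S share or of colon position in the Ndufa3 value was not tested.

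**Figure D2:**
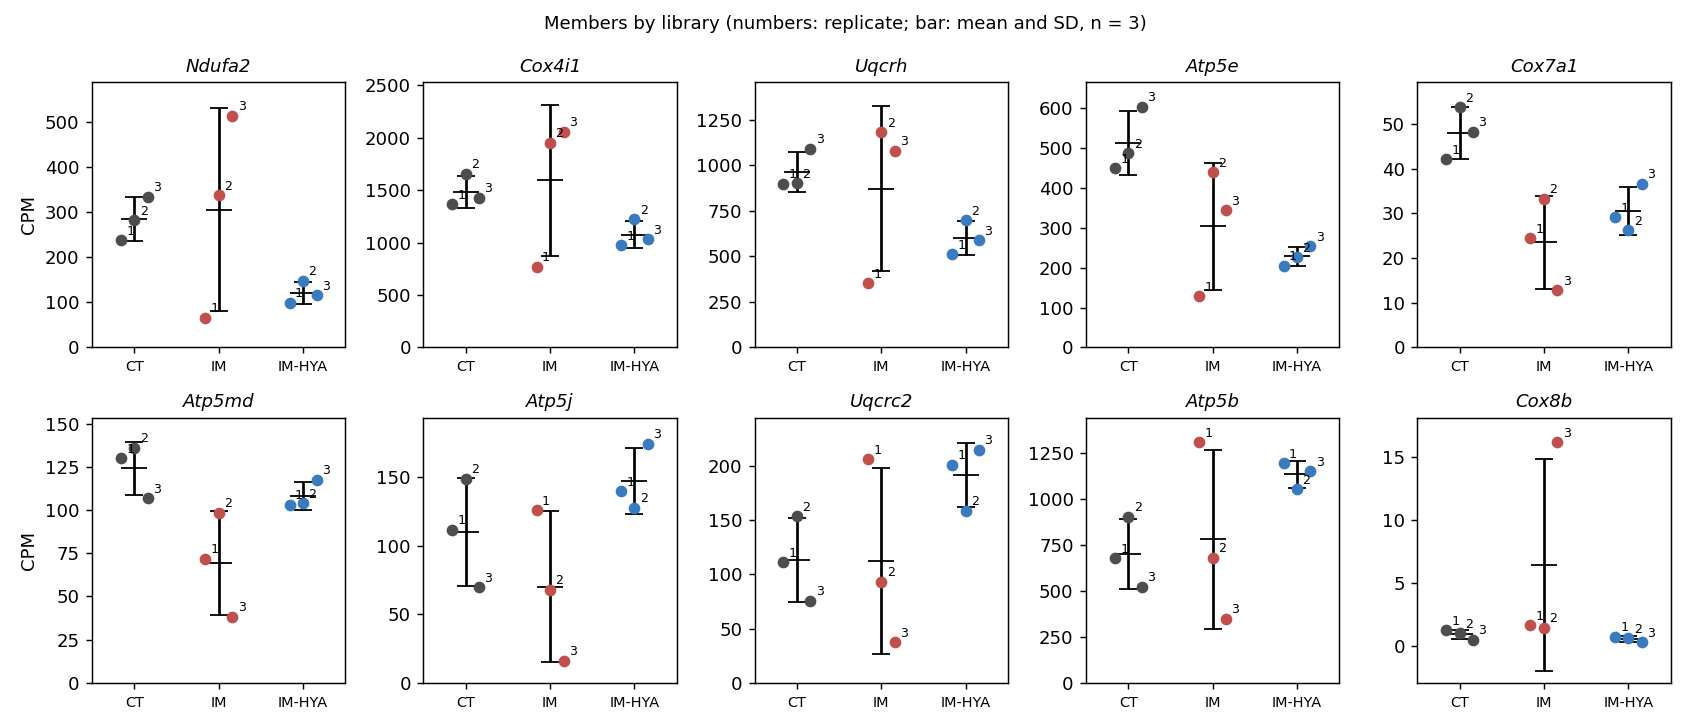
CPM (vertical axes, linear, each with its own range) of 10 members in each library, by group. Points are libraries numbered by replicate, and bars are the mean and SD of 3 libraries. Ndufa2, Cox4i1 and Uqcrh are lowest in IM 1, whereas Atp5md, Atp5j, Uqcrc2 and Atp5b are lowest in IM 3, and Cox7a1 is lower in all cast libraries than in CT.

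Members also parted inside the IM group. Between IM 3 and IM 1, 20 members were over 2-fold higher in IM 3 and 14 over 2-fold higher in IM 1, out of 85. These are single libraries of the same group, so the values are a description. Over the genes tested IM 1 and IM 3 also differed beyond counting error (mean chi-square per gene 694). The share of all genes over 2-fold apart was not counted, so the split is not shown to be particular to the members. In the first set Cox8b had the highest log2 difference, at 3.16, followed by complex I accessory genes at 2.88 for Ndufa2, 2.69 for Ndufa5, 2.24 for Ndufa3 and 2.05 for Ndufb7, and the set included Uqcrh at 1.54 and Cox4i1 at 1.34. The other set, higher in IM 1, included Atp5j, coupling factor 6 of the peripheral stalk, at −3.03, a core protein and the cytochrome of complex III (Uqcrc2 at −2.53, Cyc1 at −2.51) and the catalytic beta subunit and the gamma subunit of ATP synthase (Atp5b at −1.99, Atp5c1 at −1.99). Of the members whose promoters are printed above, Ndufa5 was in the first set. Atp5c1, Sdha (−0.92) and Ndufb4 (−0.61) were higher in IM 1. The printed members were chosen for holding NRF1 letters and for lying on opposite sides, so finding the letters on both sides follows from that choice. The remaining members with NRF1 letters were not counted by side.

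Atp5j measured 112, 149 and 69.7 CPM in CT, 126, 67.8 and 16.2 in IM and 139.7, 128 and 175 in IM-HYA. The annotated span of Atp5j overlaps Gabpa, whose reads cannot be told apart with certainty. Ndufa5, an accessory subunit of the peripheral arm of complex I, measured 182, 197 and 288 CPM in CT, 60.7, 330.1 and 415 in IM and 105, 159 and 118 in IM-HYA. Both genes thus differed more within the IM group than between any group means. IM 1 had the lowest 18S share of all libraries and a high distal Hox level, and IM 3 had the lowest distal Hox level, the highest adipocyte, T cell and B cell marker levels and the lowest epithelial level. Their part in these values was not tested.

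**Figure D3:**
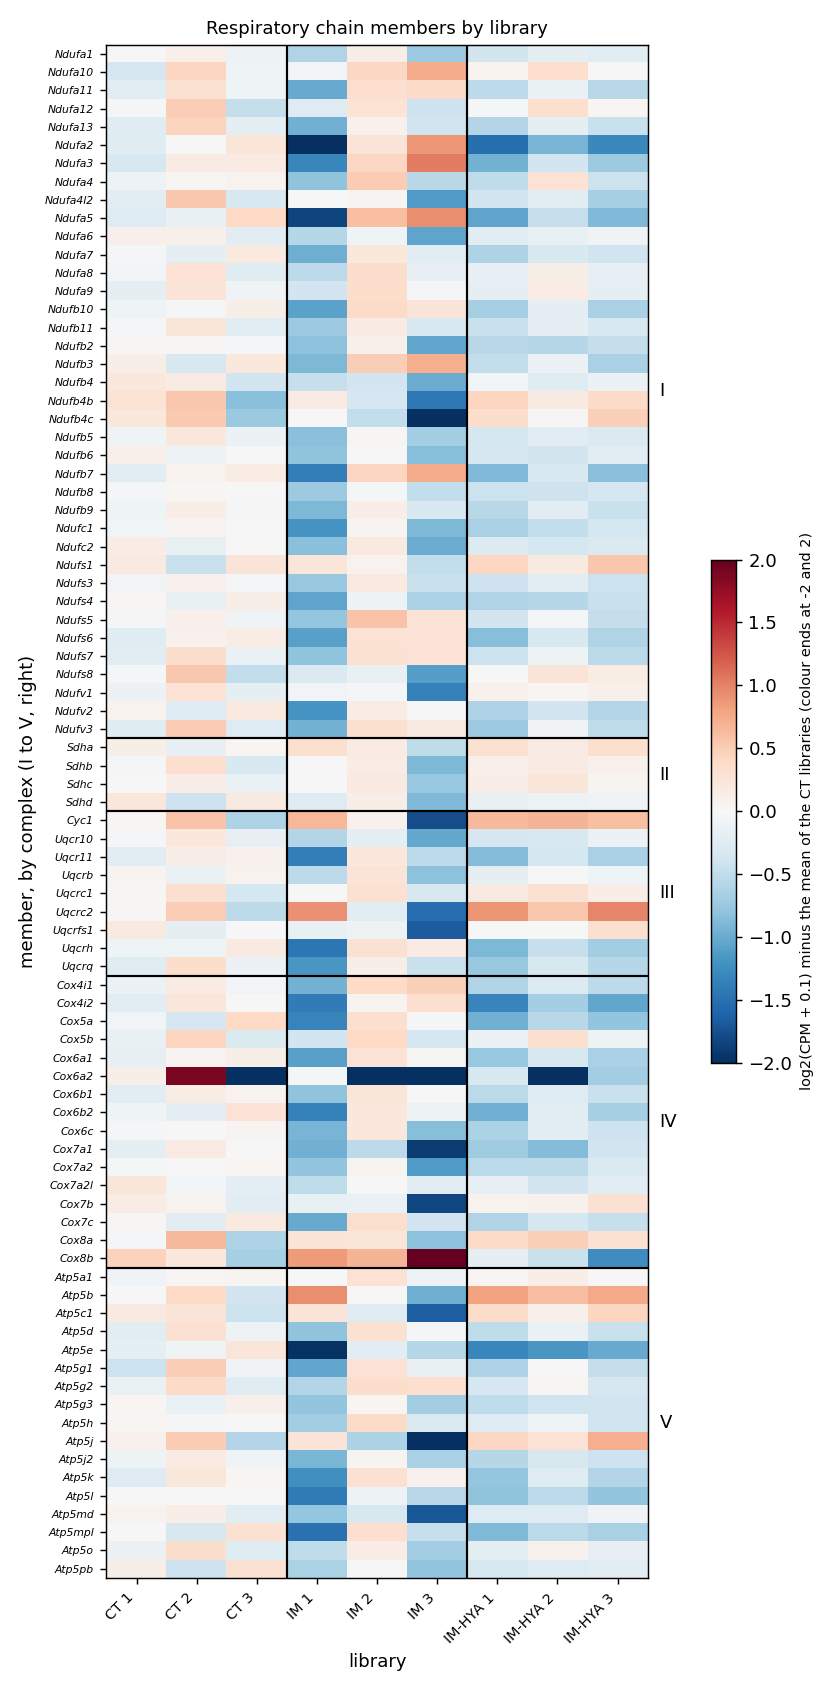
Level of 84 members (rows, ordered by complex) in each library (columns) as log2(CPM + 0.1) minus the mean of the CT libraries. Red is higher and blue is lower, with the colour ending at −2 and 2, and Cox7b2 and Cox8c, with no read, and 1 further member are left out. IM 1 is blue for most members, IM 3 mixes red and blue, IM 2 is close to or above CT, and the IM-HYA libraries are mostly pale blue.

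Leaving out IM 1 changed the comparison of IM-HYA with IM. Without IM 1, the quasi-likelihood test of edgeR, Benjamini-Hochberg adjusted, called 9 of 85 members, all lower in IM-HYA, among 871 of 18864 genes called (4.62%). They were Ndufa2 (log2 fold change −1.81, SE 0.26), Ndufa5 (−1.54, SE 0.26), Ndufa3 (−1.41, SE 0.26), Ndufb7 (−1.23, SE 0.23) and Ndufb3 (−1.003, SE 0.23) of complex I, Uqcrh (−0.91, SE 0.21) of complex III, and Cox8b (−3.94, SE 0.85), Cox4i2 (−1.21, SE 0.28) and Cox4i1 (−0.89, SE 0.20) of complex IV. The edgeR adjusted p values ran from 0.0436 to 0.0499, and the IM arm then held 2 libraries. Without IM 2 edgeR called 0 members, with 10 at an unadjusted p under 0.05 (11.8%) against 8.47% of genes, and all IM-HYA libraries lay above both remaining IM libraries for 37 members (43.5%), against 10.9% of genes. The members' median came to −0.18 with IM 1 left out, 0.29 with IM 2 left out and −0.09 with IM 3 left out, so its sign depended on which IM library was left out.

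The comparison of IM-HYA with CT had the most members without overlap between groups, with no member called. By the quasi-likelihood test of edgeR, Benjamini-Hochberg adjusted, 0 members passed and 1 gene did (0.00543%), and the members' adjusted p ran from 0.854 to 0.994. At an unadjusted p under 0.05 there were 4 members, all lower in IM-HYA, while 5.20% of genes were under that value, and DESeq2 called 0 members and 15 genes (0.0815%). The fitted change was below 0 for 63 of 85 members, against 49.4% of genes, with a median of −0.35, against 0.01 over all genes. All 3 IM-HYA libraries lay below all 3 CT libraries for 37 members (43.5%), against 11.3% of genes, and above them for 4 (4.71%), against 10.8%. A fit of only the CT and IM-HYA libraries, without the more variable IM group, gave 35 members at an unadjusted p under 0.05, 33 of them lower, against 15.8% of genes, with a smallest adjusted p of 0.114.

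The direction of these values depended on the scaling. On deposited FPKM, which divide by the whole library, 0 members lay below every CT library and 20 (23.5%) above, against 0.462% and 29.6% of genes. Leaving out CT 2, whose total includes the pancreatic RNA, gave 18 members below (21.2%) and 20 above (23.5%) on that scale, against 7.18% and 30.3% of genes. On log2(FPKM + 1) values the members' median was 0.30 and that of all genes 0.52, so the members lay below the median gene on both scales. Without the filter on low genes they lay above it, at 0.28 against 0.14. The 18S share was lower in every IM-HYA library than in every CT library, so the share and the group cannot be told apart here. This limit holds for the single members of this comparison given below too. With the 18S share as a covariate the members' median was −0.16. With colon position as a covariate it was −0.31.

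By complex, the fitted change of IM-HYA against CT had a median of −0.35 in complex I, 0.12 in II, −0.10 in III, −0.47 in IV and −0.30 in V. Members without overlap and lower in IM-HYA numbered 18 of 39, 0 of 4, 3 of 9, 10 of 16 and 6 of 17, against 11.3% of all genes. By role within complexes, the 7 core subunits of complex I, which carry electrons, had a median of 0.03, and the 32 accessory subunits −0.40, with 28 below 0. The 4 large subunits of complex III, Cyc1, Uqcrfs1, Uqcrc1 and Uqcrc2, were all fitted above 0 (median 0.37), and the 5 small ones all below 0 (median −0.56). The 5 F1 head subunits of complex V had a median of 0.06, the 3 c-ring genes −0.38, the 4 peripheral stalk genes −0.17 and the 5 small membrane subunits −0.53. These values are on scaled counts, and the sign of the members' median flips on FPKM, as given above. Roles were not compared at like gene length.

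Atp5e had the smallest p of the members in this comparison (Entrez 67126, chromosome 2, 174461075 to 174464101). It measured 449, 487 and 603 CPM in CT, 129, 439 and 343 in IM and 205, 226 and 253 in IM-HYA. All IM-HYA libraries lay below all CT libraries by a wide gap, and IM spanned the range between, with IM 1 lowest. Its log2 fold change was −1.17 (SE 0.38; unadjusted p 0.0117, edgeR adjusted p 0.854), and −0.56 with the 18S covariate. Atp5l measured 573, 569 and 579 CPM in CT, 214, 533 and 391 in IM and 329.7, 397 and 334 in IM-HYA, a log2 fold change of −0.70 (SE 0.30; edgeR adjusted p 0.854). The 3 CT values were close together, and all IM-HYA and IM values lay below them.

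Cox4i2, the oxygen-sensitive form of subunit 4 (Entrez 84682, chromosome 2, 152753916 to 152765039), measured 5.73, 7.86 and 6.67 CPM in CT, 2.48, 6.996 and 8.46 in IM and 2.63, 4.13 and 3.19 in IM-HYA. IM-HYA lay below CT without overlap, and IM spanned both. The log2 fold change was −1.02 (SE 0.42; unadjusted p 0.0359, edgeR adjusted p 0.854). Its ubiquitous counterpart Cox4i1 measured 1365, 1658 and 1427 CPM in CT, 768, 1952 and 2057 in IM and 973, 1221 and 1032 in IM-HYA, a log2 fold change of −0.46 (SE 0.34; edgeR adjusted p 0.855). The same order of libraries held, with IM-HYA below CT and IM 1 lowest of all. The remaining member at an unadjusted p under 0.05 was Ndufs4, an accessory subunit of complex I, at a log2 fold change of −0.54 (SE 0.24).

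Uqcrh, the highest member of complex III, measured 899.8, 901 and 1091 CPM in CT, 352, 1183 and 1081 in IM and 514, 699 and 590.2 in IM-HYA, a log2 fold change of −0.68 (SE 0.39; edgeR adjusted p 0.854). IM-HYA lay below CT without overlap. The large core subunit Uqcrc2 (Entrez 67003, chromosome 7, 120635189 to 120659523) lay the other way, at 111, 153 and 75.8 CPM in CT, 206, 93.2 and 37.7 in IM and 201, 159 and 215 in IM-HYA. All IM-HYA libraries lay above all CT libraries, and IM 1 lay with IM-HYA while IM 3 was the lowest. The log2 fold change was 0.76 (SE 0.50, edgeR adjusted p 0.855). With the 18S share as a covariate it was −0.12, though that share did not overlap between IM-HYA and CT.

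Atp5b, the catalytic beta subunit of the F1 head (Entrez 11947, chromosome 10, 128083307 to 128090388), measured 679, 905 and 524 CPM in CT, 1312, 682 and 350.03 in IM and 1197, 1056 and 1153 in IM-HYA. IM-HYA lay above CT without overlap, and the IM libraries ran from the lowest to the highest of the 9. This was a log2 fold change of 0.69 (SE 0.41; edgeR adjusted p 0.854), and 0.02 with the 18S covariate. Cyc1, the cytochrome of complex III, and Sdha, the flavoprotein of complex II, were the other members that lay above CT without overlap, at log2 fold changes of 0.56 (SE 0.50) and 0.26 (SE 0.23). Ndufs1, the largest core subunit of complex I, measured 105, 68.5 and 112 CPM in CT, 109.9, 97.1 and 66.3 in IM and 123, 105 and 134 in IM-HYA, a log2 fold change of 0.35 (SE 0.25; edgeR adjusted p 0.855) that was 0.18 without CT 2, and the groups overlapped. Sdhd, the highest complex II member, measured 389, 248 and 376 CPM in CT, 276, 364 and 180.2 in IM and 298, 307 and 316 in IM-HYA, a log2 fold change of −0.14 (SE 0.28; edgeR adjusted p 0.945), also with overlap.

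Members with shorter gene models had lower fitted values in IM-HYA against CT. Lengths here are those implied by the deposited counts and FPKM, with a median of 778 bases for the members and 3083 for all genes tested. Of the 42 shorter members 38 were fitted below 0, with a median of −0.45 and 26 lower without overlap. Of the 43 longer members 25 were fitted below 0, with a median of −0.14 and 11 lower without overlap. Over all genes tested 49.4% were fitted below 0 and 11.3% were lower without overlap, and genes of like length were not counted apart. These are scaled counts, and on FPKM 0 members were lower without overlap. Spearman's rho between length and fitted change over the 85 members was 0.46, against 0.19 over all genes. It was 0.23 for the members and 0.23 for all genes in IM against CT, and 0.25 and −0.06 in IM-HYA against IM. Members share libraries and are not independent, so these are descriptions.

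**Figure D4:**
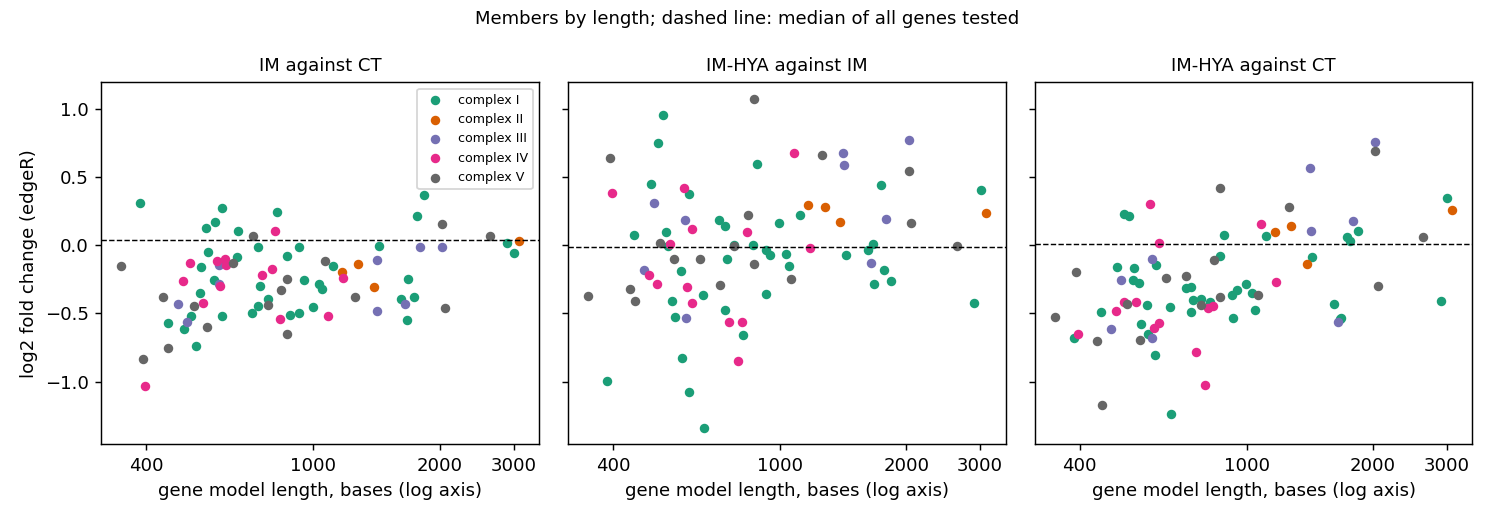
Fitted log2 fold change (vertical axis) of each member against its gene model length in bases (horizontal log axis), for each comparison, coloured by complex. The dashed line is the median of all genes tested, and Cox8b and Cox6a2 are left out. In IM-HYA against CT the shortest members lie mostly below 0 and the members above 0.5 are Uqcrc2, Atp5b and Cyc1, all longer than the median member.

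Complex IV, complex I and the c-ring have members that replace each other by tissue, and their ratio within a library does not depend on scaling between libraries. Cox7a1 made up 25.7%, 29.5% and 26.7% of the Cox7a1 and Cox7a2 TPM in CT, 25.5%, 19.9% and 17.8% in IM, and 24.7%, 22.9% and 25.6% in IM-HYA. All cast libraries lay below all CT libraries, narrowly so in IM 1 and IM-HYA 3, and on counts not scaled by length IM-HYA overlapped CT (exact permutation p = 0.2). The log2 ratio differed by −0.51 in IM against CT and −0.22 in IM-HYA against CT, each with an exact permutation p of 0.1 (two-sided, 3 against 3, the smallest this design allows) and 0.35 after Benjamini-Hochberg adjustment over 21 tests. Cox7a2 itself measured 263, 265 and 273 CPM in CT, 154, 276 and 121 in IM and 183, 186 and 219 in IM-HYA.

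Cox4i2 made up 0.43%, 0.48% and 0.47% of the subunit 4 TPM in CT, 0.33%, 0.36% and 0.42% in IM, and 0.27%, 0.34% and 0.31% in IM-HYA. Both cast groups lay below CT without overlap, and the log2 ratio differed by −0.32 in IM and −0.57 in IM-HYA against CT (exact permutation p = 0.1, adjusted 0.35, for each). Cox8b made up 0.52%, 0.27% and 0.29% of the subunit 8 TPM in CT, 0.56%, 0.50% and 10.5% in IM, and 0.23%, 0.18% and 0.10% in IM-HYA. IM 3 alone was above 1%. The log2 ratio of IM-HYA differed by −3.23 from IM and by −1.11 from CT (exact permutation p = 0.1, adjusted 0.35, for each), and the ubiquitous Cox8a measured 358, 575 and 239 CPM in CT, 439, 432 and 207 in IM and 479.8, 509 and 454 in IM-HYA.

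The other pairs overlapped between groups. Cox6b2, a testis-type form, made up 0.78% to 1.35% of its pair with Cox6b1 over the 9 libraries, at 6.69, 6.22 and 8.73 CPM in CT, 2.72, 8.24 and 6.65 in IM and 3.61, 6.10 and 4.47 in IM-HYA. Cox6b1 measured 437, 569 and 538, 293, 602 and 512 and 352, 426 and 376 CPM in the 3 groups in that order. Both members of this pair were lowest in IM 1. Ndufa4l2, a hypoxia-induced relative of Ndufa4, made up 0.74% to 2.03% of its pair, at 3.11, 5.26 and 2.85, 3.63, 3.73 and 1.58 and 2.73, 3.09 and 2.23 CPM in CT, IM and IM-HYA. Ndufa4 measured 146, 161 and 165, 89.8, 224 and 107 and 110.5, 193 and 116 CPM. The highest Ndufa4l2 share was in IM 1, where Ndufa4 was lowest.

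Cox6a2 had 0.330, 1.37 and 0 CPM in CT, 0.293, 0 and 0 in IM and 0.219, 0 and 0.145 in IM-HYA, and with 0 reads in 4 libraries its pair was given no log ratio. Its counterpart Cox6a1 measured 937, 1091 and 1137 CPM in CT, 496, 1290.3 and 1073 in IM and 619.5, 839.6 and 669 in IM-HYA, with IM-HYA below CT without overlap. The c-ring of ATP synthase is encoded by Atp5g1, Atp5g2 and Atp5g3, whose mature proteins are the same. Atp5g1 measured 240.3, 457 and 310.1 CPM in CT, 157, 397 and 294 in IM and 211, 327 and 234 in IM-HYA, and Atp5g2 287, 410.5 and 269, 210.02, 404 and 398 and 249.9, 326 and 251. Both overlapped between groups. Atp5g3 measured 707, 626 and 738 CPM in CT, 399.9, 705 and 426 in IM and 484, 521 and 519.7 in IM-HYA, with IM-HYA below CT without overlap. Of the pair with Atp5g3, Atp5g1 took 30.4% ± 8.31 of the TPM in CT, 32.7% ± 6.09 in IM and 31.0% ± 4.41 in IM-HYA (SD, n = 3), and Atp5g2 33.3% ± 7.09, 41.7% ± 7.56 and 37.0% ± 3.30.

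The genes that build and supply the chain did not pass either: edgeR called 0 of the 110 tested genes in the lists of assembly factors, citric acid cycle and pyruvate dehydrogenase, biogenesis regulators, coenzyme Q and cytochrome c, and mitochondrially encoded subunits in each of the comparisons. An unadjusted p under 0.05 was seen for 10 of them in IM against CT, 8 in IM-HYA against IM and 8 in IM-HYA against CT, and DESeq2 called 0 in each. These are 9.09%, 7.27% and 7.27% of the lists, near the 7.94%, 7.66% and 5.20% of all genes. In IM against CT the list medians were −0.06, −0.06, −0.18, −0.05 and 0.43, in IM-HYA against IM 0.26, 0.24, 0.24, 0.42 and 0.41, and in IM-HYA against CT 0.02, 0.19, 0.13, 0.21 and 0.85. In IM-HYA against CT, 24 of 48 tested assembly factors were below 0, 3 of 18 citric acid cycle genes, 5 of 16 regulators, 5 of 15 coenzyme Q and cytochrome c genes and 1 of 13 mitochondrially encoded genes. The coenzyme Q and cytochrome c list also holds Ndufab1, a nuclear-encoded complex I subunit that the symbol rule left out of the members. Its log2 fold change there was −0.25 (SE 0.25; edgeR adjusted p 0.882). On these scaled counts the nuclear members, with 63 of 85 below 0, were mostly on the other side of 0 from the mitochondrially encoded ones. This difference between lists was not tested. On log2(FPKM + 1) values the members' median was 0.30, above 0, and no FPKM value is given here for the lists.

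Among assembly factors Cmc1, of the complex IV pathway, measured 31.3, 29.99 and 32.2 CPM in CT, 14.7, 27.1 and 14.9 in IM and 23.4, 23.6 and 23.1 in IM-HYA, a log2 fold change of −0.72 (SE 0.24) in IM (unadjusted p 0.0150, edgeR adjusted p 0.621). Sdhaf4, which assists complex II, measured 17.2, 13.3 and 10.8, 9.93, 8.61 and 4.88 and 12.6, 12.4 and 14.4 CPM, lowest in IM without overlap with either other group. The fitted changes were −0.82 (SE 0.29) in IM against CT and 0.75 (SE 0.29) in IM-HYA against IM. Tmem70, which assists ATP synthase, had a log2 fold change of 0.64 (SE 0.23) in IM-HYA against IM. In IM-HYA against CT the smallest p values were those of Tmem186, of the complex I pathway, at 0.65 (SE 0.25), and Cox15, which makes heme A, at 1.002 (SE 0.44). None of these passed (edgeR adjusted p 0.604 to 0.854).

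Of the regulators, Pprc1, a relative of the coactivator PGC-1α, measured 22.5, 25.8 and 20.7 CPM in CT, 27.2, 33.6 and 45.6 in IM and 18.8, 21.00 and 20.1 in IM-HYA. All IM libraries lay above all others, with a log2 fold change of 0.62 (SE 0.22) against CT and −0.83 (SE 0.22) for IM-HYA against IM (unadjusted p 0.00367, edgeR adjusted p 0.604). Ppargc1a, which encodes PGC-1α, lay the other way at 19.1, 20.02 and 34.5, 19.6, 19.3 and 12.7 and 31.7, 23.97 and 29.02 CPM, a log2 fold change of 0.71 (SE 0.28) in IM-HYA against IM (edgeR adjusted p 0.604). All IM-HYA libraries lay above all IM libraries. Polg2, an accessory subunit of the mitochondrial DNA polymerase, had −0.73 (SE 0.23) in IM against CT and −0.27 (SE 0.23) in IM-HYA against CT, and Gabpb1, a partner of GABPA, 0.32 (SE 0.23) in IM-HYA against CT, none passing (edgeR adjusted p 0.621 to 0.866).

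For electron supply, Coq8a and Coq2, which take part in coenzyme Q synthesis, had log2 fold changes of −0.79 (SE 0.32) and −0.40 (SE 0.21) in IM against CT and 0.73 (SE 0.32) and 0.49 (SE 0.21) in IM-HYA against IM. Coq5 and Pdss1, of the same pathway, had 0.44 (SE 0.18) and 0.68 (SE 0.36) in IM-HYA against CT. In the citric acid cycle list Dld, a shared subunit of the dehydrogenase complexes, had a log2 fold change of −0.57 (SE 0.30) in IM against CT and 0.56 (SE 0.30) in IM-HYA against IM. Pdhb, of pyruvate dehydrogenase, had −0.70 (SE 0.31) in IM-HYA against IM, and citrate synthase, Cs, 0.29 (SE 0.19) in IM-HYA against CT. None of these genes passed (edgeR adjusted p 0.604 to 0.855).

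The mitochondrially encoded subunits summed to 13762, 26126 and 11581 CPM in CT, 35252, 17473 and 13838 in IM, and 26143, 29800 and 29328 in IM-HYA. All IM-HYA libraries lay above all CT libraries, though IM-HYA 1 and CT 2 were nearly equal, and IM 1, lowest in most nuclear members, was the highest. ND5 measured 527, 486 and 691 CPM in CT, 893, 806 and 1311 in IM and 608, 561 and 713 in IM-HYA, with log2 fold changes of 0.82 (SE 0.25) in IM against CT and −0.68 (SE 0.25) in IM-HYA against IM. ND4L measured 12.5, 31.2 and 35.3, 186, 52.1 and 62.6 and 62.2, 67.4 and 61.3 CPM, and its log2 fold change was 1.93 (SE 0.51) in IM and 1.27 (SE 0.50) in IM-HYA, both against CT. ND5 was above CT in all IM libraries, and ND4L in all cast libraries. ATP8 had a log2 fold change of 2.22 (SE 0.86) in IM-HYA against CT and ND6 of −1.73 (SE 0.72) in IM-HYA against IM. ND4L, ATP8 and ND6 overlap or lie beside other mitochondrial genes, so their reads are uncertain without the strand, and none passed (edgeR adjusted p 0.604 to 0.854).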

How the data were processed

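Colon RNA of 9 libraries was profiled. The submitters' processing notes name HISAT2 2.1.0, StringTie 2.1.3b, Trimmomatic and bcl2fastq 2.20.0 with the build GRCm38 (mm10). The strand setting and the annotation release are not given in the sources used here. Read counts, deposited by the authors as whole numbers without normalization, entered the tests. The deposited FPKM, scaled by the authors for gene length and library total, entered alternatives, and the deposited TPM gave levels between genes and isoform shares. Of the table's per-sample columns, 0 were unused.

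The main test was an edgeR 4.0.16 quasi-likelihood fit of all 9 libraries (robust, TMM scaling, group as the only term, R 4.3.3) on 18414 genes that passed filterByExpr (minimum count 10, minimum total 15), with Benjamini-Hochberg adjustment over all of them and a threshold of 0.05. A total of 9 libraries leaves 6 residual degrees of freedom, and log2 fold changes had a median standard error of 0.37. CPM use the TMM effective library size. Groups do not overlap where every library of a group lies on the same side of every library of the other. The comparisons share libraries, so no value is compared across them as independent. Isoform log ratios were compared by exact permutation tests (two-sided). Library totals set counting error only. Replicates differed beyond counting error (lowest chi-square per gene 42.3) and were counted separately. Scripts were tested on simulated counts.

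Alternatives were DESeq2 1.42.0, limma 3.58.1 (voom with quality weights, and log2 FPKM with pseudocounts of 1 and 0.1), other scalings and filters, protein-coding genes alone, covariates for the 18S share and colon position (distal Hox genes), the groups compared alone, a replicate block, the older form of the edgeR test and libraries left out. The older test form and the alternatives for the counts of members without overlap were chosen after seeing the data. Values per library are given for the 3 members with the smallest p per direction and comparison, the highest-TPM member of each complex and the isoform pairs, and 2 genes per list and comparison are named, except 2 genes that are not reported here; other members were chosen after their values were seen. The members and lists were chosen with earlier results of these data known, so no list is independent support. Promoter windows and coordinates (1-based) are from RefSeq GRCm38.p6, which held all 87 members' coordinates.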

Additional observations from a re-analysis of the deposited data

How the results depend on the processing

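With 3 libraries a group, the log2 fold changes had a median standard error of 0.37, which limits the changes that could be called. Over 25 alternatives, 0 members were called in IM against CT and in IM-HYA against CT, and in IM-HYA against IM 0 were called except without IM 1, where 9 were, a range of 0 to 9 as each library was left out. The cause of the differences below was not tested.

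The members' median log2 fold change in IM against CT was −0.25, but 0.014 with voom and quality weights, 0.12 on log2(FPKM + 1), 0.13 on log2(FPKM + 0.1) and 0.12 on unfiltered log2(FPKM + 1), and −0.51 to −0.15 as each library was left out. In IM-HYA against IM it was −0.01, but −0.35 with voom and −0.18 to 0.29 as each library was left out. In IM-HYA against CT it was −0.35, but 0.30 on log2(FPKM + 1), 0.30 on log2(FPKM + 0.1) and 0.28 unfiltered, and −0.42 to −0.22 as each library was left out. Over all genes the median on log2(FPKM + 1) was 0.32, 0.20 and 0.52 in the 3 comparisons, and 0.09, 0.02 and 0.14 unfiltered, so that the members lay above the median gene in each when no filter was used (0.12, 0.19 and 0.28).

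Members lower without overlap numbered 7 in IM against CT (8.24%, against 4.59% of all genes). On FPKM they numbered 0, against 0.239% of genes, and 3 without CT 2 on that scale (3.53%, against 3.8%). Without CT 2 and IM 3 together they numbered 12 (14.1%, against 14.2%). As each library was left out they numbered 7 to 35, with 12 without CT 2 (14.1%, against 9.66%). There were 13 without CT 3 (15.3%, against 8.85%) and 35 without IM 2 (41.2%, against 9.35%). Such members numbered 1 in IM-HYA against IM (1.18%, against 4.3% of genes), and 2 without CT 2 and IM 3 together (2.35%, against 6.14%). As each library was left out they numbered 1 to 28. There were 28 without IM 1 (32.9%, against 24.6%) and 2 without IM 3 (2.35%, against 6.14%). In IM-HYA against CT they numbered 37 (43.5%, against 11.3% of genes). On FPKM they numbered 0, against 0.462%, and 18 without CT 2 on that scale (21.2%, against 7.18%). As each library was left out they numbered 38 to 51. There were 38 without IM-HYA 1 (44.7%, against 12.9%) and 51 without IM-HYA 2 (60%, against 17.9%).

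Values that changed sign were Uqcrc2 in IM-HYA against CT with the 18S covariate (−0.12) and, without CT 2 and IM 3 together, the log2 ratios of Ndufa4l2 to Ndufa4 in IM against CT (0.44) and IM-HYA against CT (0.044) and of Atp5g1 to Atp5g3 in IM-HYA against IM (0.079). Same-numbered replicates did not deviate together in every pair (correlation of deviations from group means −0.27 to 0.36), so the numbers were not taken to pair the libraries. A fit with the replicate block called 0 members in each comparison, with medians of −0.32, 0.02 and −0.35.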
